A study of Drosophila melanogaster with 4 samples.

Results

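The c-Jun N-terminal kinase (JNK) cascade relays cellular stress, wounding and tumor necrosis factor signals to the nucleus. Upstream kinases activate a JNK kinase, which phosphorylates JNK. JNK in turn activates AP-1, a dimer of the bZIP transcription factors Fos and Jun. In fly neurons the cascade responds to axon injury, and in the fly eye its forced activation can drive cell death. The 9 genes described here cover the cascade from end to end. They are the upstream kinases msn, slpr and wnd, the JNK kinase hep, the JNK bsk, the JNK phosphatase puc, the AP-1 subunits kay (Fos) and Jra (Jun), and Gadd45, whose mammalian counterparts are induced by stress and bind a kinase upstream of JNK kinases. They were chosen by function and found by symbol, and all 9 are among the 13929 genes of the counts table.

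Nuclear RNA was profiled from photoreceptors (PRs) of male flies at Day 30, collected at Zeitgeber time 6. The 2 siTop3β libraries came from flies expressing the Top3β RNAi line TRiP.JF01282, and the 2 siControl libraries from flies expressing UAS-mCherry-RNAi, whose target, a red fluorescent protein, has no counterpart among fly genes. Both groups also carried UAS-Dcr-2, which strengthens RNAi, UAS-GFP-Msp300KASH, which tags the nuclear envelope, and rh1-GAL4, in the same w[1118] and ry[506] backgrounds. The rh1-GAL4 driver acts in the outer PRs, so neither the RNAi nor the tag is aimed at other cells. Each library was made from tagged nuclei captured from the heads of many pooled males. The study describes its sequencing replicates in general as biologically independent, while the labels do not say so for these libraries. The p-values measure only the spread between libraries, which may be technical. With 2 libraries a group, the tests share this spread over genes, so a standard error does not reflect that gene's own replicates alone.

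The libraries held 3239201 to 4267208 counts, so that 3 counts corresponded to 0.697 to 0.871 CPM (counts scaled to a common library size with edgeR's TMM factors). The transcript targeted by the RNAi, Top3β, was at 16.5 and 19.0 CPM in the libraries labelled siTop3β, against 16.3 and 16.3 CPM in siControl, with a log2 fold change of 0.13 (standard error, SE, 0.25, with an adjusted p of 0.957 in edgeR's quasi-likelihood test). A lower level of the target was therefore not seen in this nuclear RNA, where the 95% interval ran from 76.4% to 156% of siControl, and the direction of every difference given here rests on the labels. Libraries correlated at 0.974 within siTop3β, 0.978 within siControl and 0.972 to 0.976 between the groups (log2 CPM across genes, which are not replicates). siTop3β replicate 1 stood apart in the number of genes with at least 1 count, 12922 against 10104 to 10537 in the other libraries. All 8 PR markers passed the filter on low counts and none differed by the test, with summed levels of 52036 and 58065 CPM in siTop3β and 58112 and 58424 CPM in siControl.

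None of the JNK pathway and AP-1 genes passed the test between siTop3β and siControl, and the upstream kinases and the JNK kinase were nearly level between the groups. Among those tested, the lowest values relative to siControl were those of kay, at 70.4% of siControl, and puc, at 79.7%. Jra, the partner of kay in AP-1, was at 94.3% with overlapping groups. Of the 9 genes, 8 passed the filter on low counts. With adjustment over all 7029 genes tested, 0 of the 8 had an adjusted p under 0.05 in edgeR's quasi-likelihood test, against a background of 1.21% of genes. The DESeq2 Wald test also called 0, against 1.2% of the genes it gave an adjusted p. At an unadjusted p under 0.05 there were 2 of the 8, kay and puc, against 9.09% of all genes. The 8 log2 fold changes had a median of -0.06, against 0.02 for all tested genes. In 3 of the 8 genes, kay, puc and hep, both siTop3β libraries lay below both siControl libraries, which was also the case for 19% of all tested genes, and none of the 8 lay above in both, against 19.6% of all genes.

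**Figure D1:**
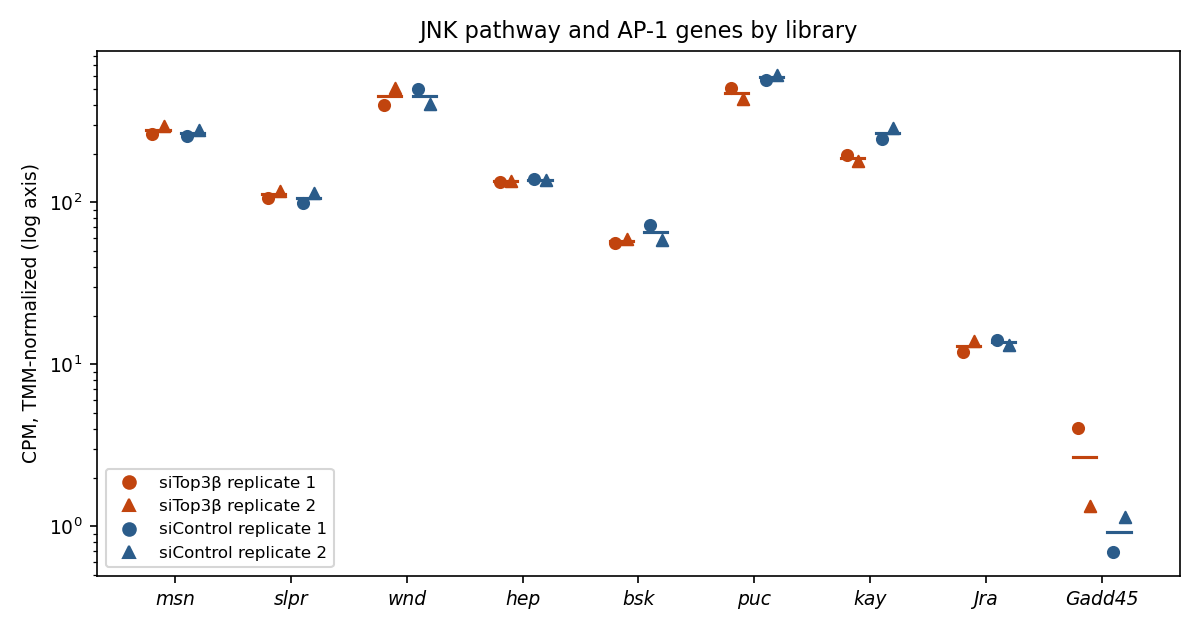
Level of each of the 9 genes in each library, in TMM-normalized CPM on a log axis. Points are single libraries, with circles for replicate 1 and triangles for replicate 2, and short lines are group means. The groups are apart with siTop3β below in hep, puc and kay, by very little in hep, and with siTop3β above in Gadd45, which is close to the detection limit.

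Of the AP-1 genes, kay lay below siControl in both libraries labelled siTop3β, while the groups overlapped in Jra, which was measured with less precision. The gene kay encodes Fos, the AP-1 subunit whose mammalian counterpart is a classical immediate-early gene. kay (FBgn0001297) lies on chromosome 3R from 29765995 to 29794113 on the plus strand in dm6 coordinates, a span of 28.1 kb of which 27.7% is exonic. It had 195.3 and 180.2 CPM in the libraries labelled siTop3β, against 247.5 and 285.9 CPM in siControl. The groups did not overlap, and the distance from the higher siTop3β library to the lower siControl library was larger than the distance between the siTop3β libraries. The means were 187.8 ± 10.7 CPM in siTop3β and 266.7 ± 27.1 CPM in siControl (SD, n = 2 each). The log2 fold change was -0.51 (SE 0.14, 95% interval -0.79 to -0.23), and the adjusted p was 0.0645 in edgeR's quasi-likelihood test, just short of the threshold of 0.05. By p-value kay was at place 102 of 7029, where 85 genes were called.

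Whether kay passed the threshold depended on the processing, while its sign did not. Under 13 other settings its log2 fold change lay between -0.63 and -0.42, and the adjusted p was under 0.05 in 4 of them. It was 0.0222 by edgeR's test when genes needed at least 10 counts in every library, a setting that called 2.29% of genes. It was 0.017 by edgeR with the replicate numbers crossed as a block (3% of genes called), a setting chosen after seeing the data, against 0.16 with the replicate block as numbered (0.854%). Without siTop3β replicate 1 it was 0.0154 by edgeR (1.81% of genes called), and without siTop3β replicate 2 it was 0.0328 (5.22%). Each of these calls was made where the share of all genes called was also above the 1.21% of the reported fit.

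Leaving out a siControl library had the opposite result for kay. Its adjusted p was 0.447 by edgeR without siControl replicate 1 (0.644% of genes called) and 0.904 without siControl replicate 2 (0.959%). In these fits the lone library of a group is assumed to vary like the other group. The DESeq2 Wald test gave kay an adjusted p of 0.128. With other scalings edgeR gave 0.0651 for size factors as in DESeq2 (1.34% of genes called), 0.11 for the upper quartile (1.01%) and 0.135 for total counts only (0.896%). Without a filter it was 0.215 (0.738%), and without robust estimation 0.118 (0.839%). kay was the only one of the 8 tested genes that any setting called.

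**Figure D2:**
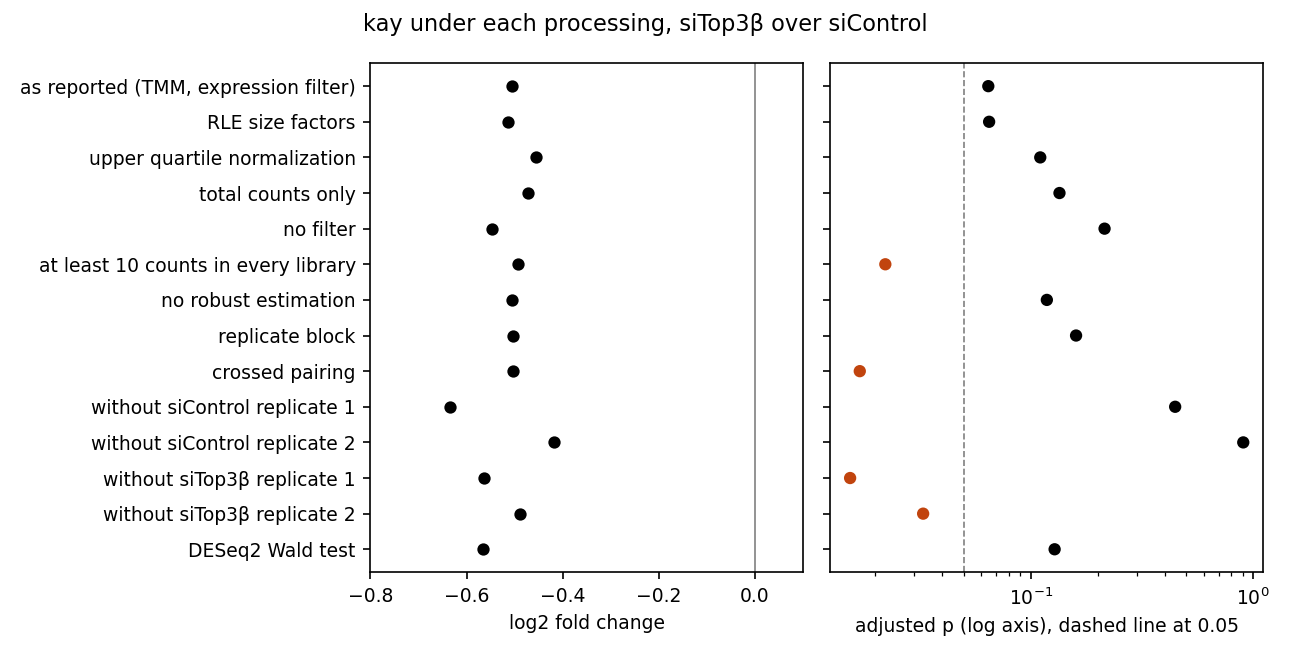
kay under the reported processing (top row) and 13 alternatives, as the log2 fold change of siTop3β over siControl (left) and the adjusted p on a log axis (right). Points in orange-red are below the dashed line at 0.05. All fold changes lie between -0.63 and -0.42, while the adjusted p runs from 0.0154 to 0.904.

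The other AP-1 subunit, Jra, the fly Jun (FBgn0001291, chromosome 2R from 10096480 to 10098556), was low in all libraries. It had 11.9 and 13.9 CPM in siTop3β, against 14.2 and 13.2 CPM in siControl, from 41 to 61 counts a library. The groups overlapped, and the log2 fold change of -0.08 had a wide interval, from -0.65 to 0.48 (SE 0.28, with an adjusted p of 0.977 in edgeR's quasi-likelihood test). This interval contains the value of kay, so the data do not show that the AP-1 subunits differ in their response. Per kilobase of exon, kay was at 24.1 CPM in siTop3β and 34.2 CPM in siControl on average, and Jra at 7.85 CPM in siTop3β and 8.32 CPM in siControl.

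The phosphatase gene puc, which JNK signaling itself induces and whose product dephosphorylates JNK, is widely used as a readout of the pathway. puc (FBgn0243512) lies on chromosome 3R from 8105332 to 8122294 on the plus strand, a span of 17.0 kb of which 18.7% is exonic. It had 509.9 and 433.6 CPM in siTop3β, against 569.6 and 614.1 CPM in siControl. Both siTop3β libraries were below both siControl libraries, but siTop3β replicate 1 was closer to siControl replicate 1 than to siTop3β replicate 2. The means were 471.8 ± 53.9 CPM in siTop3β and 591.9 ± 31.5 CPM in siControl (SD, n = 2 each). The log2 fold change was -0.33 (SE 0.14, 95% interval -0.61 to -0.04, unadjusted p = 0.0272 and adjusted p = 0.423 in edgeR's quasi-likelihood test). No other setting called puc, with adjusted p-values from 0.078 to 1.00 by edgeR or DESeq2 and log2 fold changes from -0.45 to -0.25.

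Markers of other neurons and of glia also leaned lower in the libraries labelled siTop3β, without passing the test. PR markers leaned the same way, with 6 of 8 log2 fold changes negative (median -0.10). So did inner PR markers, with 3 of 4 negative (median -0.22). Medians were -0.40 in other neurons and -0.10 in glia, and 3271 of all 7029 tested genes had negative values. Of 4 markers of other neurons (VAChT, ChAT, VGlut and Gad1) all 4 had negative log2 fold changes and none passed it, with summed levels of 105.3 and 90.8 CPM in siTop3β and 121.7 and 107.6 CPM in siControl. All 6 glial markers had negative log2 fold changes and none passed, with sums of 171.5 and 182.1 CPM in siTop3β and 204.1 and 198.0 CPM in siControl. No marker of either list was at 0 in all libraries, and their part in the values of kay and puc was not tested. Hemocyte markers summed to 84.5 and 67.8 CPM in siTop3β and 67.1 and 77.8 CPM in siControl, and muscle markers to 38 and 55.0 CPM in siTop3β and 24.1 and 56.4 CPM in siControl, so that these overlapped. In these bulk libraries, fewer cells of a type and less RNA per cell cannot be told apart.

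The kinases were expressed at widely different levels, and none passed the test between the groups. JNK itself, bsk (FBgn0000229, chromosome 2L from 10247502 to 10250501), had 56.0 and 59.3 CPM in siTop3β, against 72.4 and 58.9 CPM in siControl. siControl replicate 1 was the highest, and the other 3 libraries lay close together. The log2 fold change of bsk was -0.19 (SE 0.17, 95% interval -0.53 to 0.15, adjusted p = 0.824 in edgeR's quasi-likelihood test).

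The JNK kinase gene hep (FBgn0010303, chromosome X from 13079205 to 13090434), which encodes the fly counterpart of MKK7, was the steadiest of the 9. It had 133.8 and 135.9 CPM in siTop3β, against 138.4 and 136.8 CPM in siControl. Although the groups did not overlap, their means of 134.8 ± 1.5 CPM in siTop3β and 137.6 ± 1.14 CPM in siControl (SD, n = 2 each) differed by a log2 fold change of only -0.03. The 95% interval placed hep between 80.8% and 119% of siControl (SE 0.14, with an adjusted p of 0.985 in edgeR's quasi-likelihood test).

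Among the kinases upstream of hep, wnd (FBgn0036896, chromosome 3L from 19624406 to 19635783), the fly DLK that signals axon injury, was the most abundant per kilobase of exon. It had 399.6 and 507.0 CPM in siTop3β, against 500.4 and 401.8 CPM in siControl, so that each group held a high and a low library. Its replicates were 0.34 apart on the log2 scale in siTop3β and 0.32 in siControl, wider than its log2 fold change of 0.01 (SE 0.15, 95% interval -0.30 to 0.31, adjusted p = 0.999 in edgeR's quasi-likelihood test). The interval still allowed a level between 81.3% and 124% of siControl.

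The mixed-lineage kinase gene slpr (FBgn0030018, chromosome X from 8170229 to 8177185) had 106.2 and 118.3 CPM in siTop3β, against 98.7 and 114.8 CPM in siControl. msn (FBgn0010909, chromosome 3L from 2554847 to 2586540), a Ste20-family kinase at the top of the cascade, had 265.8 and 296.4 CPM in siTop3β, against 257.3 and 278.4 CPM in siControl. For both genes the groups overlapped. The log2 fold change was 0.08 for slpr (95% interval -0.22 to 0.37, adjusted p = 0.955) and 0.07 for msn (95% interval -0.21 to 0.35, adjusted p = 0.956, both in edgeR's quasi-likelihood test). Spanning 31.7 kb, msn was the longest of the 9 genes, longer than kay at 28.1 kb.

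**Figure D3:**
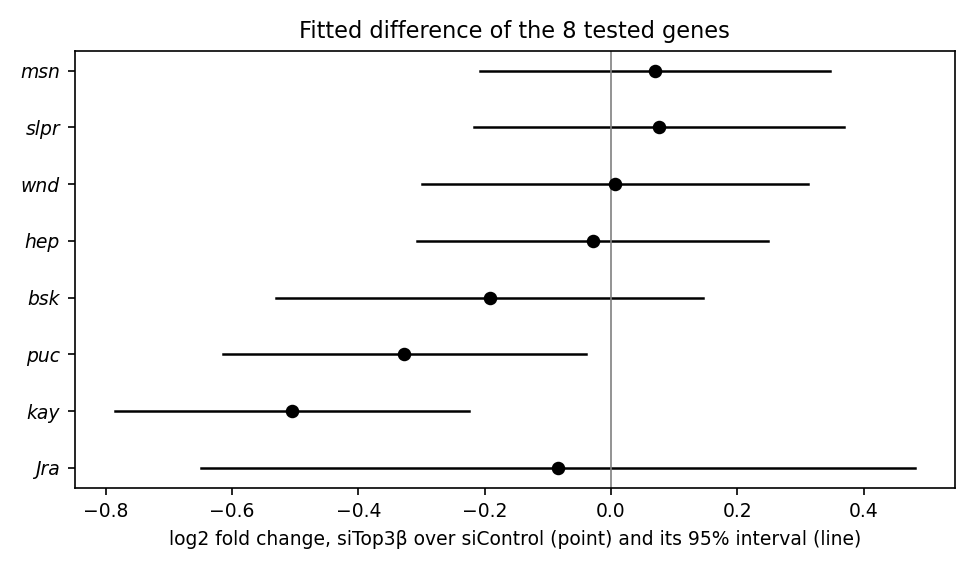
Log2 fold change of siTop3β over siControl for the 8 tested genes, with the 95% interval derived from edgeR's quasi-likelihood test, before any adjustment for the number of genes. The intervals of puc and kay lie below 0, and those of msn, slpr, wnd, hep, bsk and Jra include 0.

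Gadd45 (FBgn0033153, chromosome 2R from 7249161 to 7250655), a gene with a single exon, was barely detected and did not pass the filter on low counts. It had 14 and 5 counts in siTop3β, against 3 and 4 counts in siControl, or 4.06 and 1.34 CPM in siTop3β against 0.697 and 1.14 CPM in siControl, so that both siTop3β libraries lay above both siControl libraries. The 95% Poisson interval, which covers counting error only, ran from 7.65 to 23.5 counts in siTop3β replicate 1 and from 1.62 to 11.7 in siTop3β replicate 2, and from 0.619 to 8.77 and 1.09 to 10.2 in siControl replicates 1 and 2. The intervals are in counts, not scaled to library size, so whether they overlap does not compare the levels. siTop3β replicate 1 was the highest, and the other 3 libraries, at 3 to 5 counts, could not be told apart at this depth. The same library was the highest for 9 of the 11 genes of all lists that had a count but were not tested, and for 82.0% of the 6115 such genes in the whole table. Fat body markers were also highest there, with sums of 29.9 and 5.07 CPM in siTop3β against 3.72 and 8.87 CPM in siControl. The part of this library's other features in the Gadd45 count was not tested.

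Between genes, levels were compared per kilobase of exon. In siControl the order of the mean levels was puc at 186.6, wnd at 85.9, msn at 39.2, kay at 34.2, bsk at 32.6, hep at 22.1, slpr at 19.0, Jra at 8.32 and Gadd45 at 0.616 CPM per kb. The neighbours kay and bsk overlapped in siControl, while the libraries of the other neighbours did not. In siTop3β the order was the same except that bsk, at 28.6, stood above kay, at 24.1 CPM per kb, with no overlap between the libraries of these genes. Whether reads in introns were counted is not stated, and if they were, these levels are too high for genes with long introns, such as puc and kay.

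Some of the genes share sequence positions with others. The gene fig lies inside kay on the opposite strand, shares no exonic bases with it, and had 5 and 1 counts in siTop3β and 0 and 0 counts in siControl. The last 39 exonic bases of Jra overlap RpLP0-like on the opposite strand, and 38 exonic bases of slpr overlap CG2278 on the same strand. RpLP0-like had only 3 to 8 counts a library and CG2278 had 251 to 327. The transcripts lncRNA:CR46110 inside kay and lncRNA:CR44331 inside puc, both on the opposite strand, and an INE-1 transposable element inside wnd, on the same strand, share no exonic bases with their hosts, and their own levels were not analysed here. How the counting assigned shared reads is not stated, so the values of Jra and slpr are uncertain by reads in these short stretches.

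The rest of the pathway was described by lists of genes picked by function. The first held the ligand, receptors and upstream kinases, of which 15 of 16 were tested and none passed the test in either direction, with a median log2 fold change of -0.09. The kinase Tak1, which relays immune and tumor necrosis factor signals to hep, was level, with 75.7 and 75.6 CPM in siTop3β and 76.9 and 75.0 CPM in siControl. The smallest p-values of the list belonged to the Src kinases Src64B and Src42A and to Tab2, the partner of Tak1. Src64B had a log2 fold change of -0.52 (SE 0.29), Src42A of -0.22 (0.13) and Tab2 of -0.18 (0.14), with adjusted p-values of 0.657, 0.698 and 0.788 in edgeR's quasi-likelihood test. The only tumor necrosis factor of the fly, egr, was not tested and had 14 and 4 counts in siTop3β and 4 and 3 counts in siControl, with siTop3β replicate 1 again the highest.

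Of the scaffolds and regulators, 8 of 9 symbols were found and tested, and none passed in either direction, with a median log2 fold change of 0.03. The ubiquitin ligase gene hiw, whose product degrades the wnd kinase, had 659.1 and 685.4 CPM in siTop3β and 650.2 and 867.4 CPM in siControl. The smallest p-values belonged to raw, a negative regulator of JNK signaling, with -0.24 (SE 0.13), to the JNK scaffold gene Aplip1, with 0.19 (0.14), and to Fsn, the F-box partner of hiw, with 0.60 (0.46). Their adjusted p-values were 0.656, 0.776 and 0.788 in edgeR's quasi-likelihood test.

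Of 16 known AP-1 and JNK target genes, puc and Gadd45 among them, 15 were found and 8 were tested, and none passed in either direction. Their log2 fold changes had a median of -0.09, with 4 negative and 4 positive. Both siTop3β libraries lay below both siControl libraries in 3 of the 8 and above in none, against 19% and 19.6% of all tested genes. The stress factor gene Atf3, whose product is a bZIP protein that can pair with Jra, had 123.9 and 204.3 CPM in siTop3β, against 239.2 and 234.1 CPM in siControl. siTop3β replicate 1 was far below the other 3 libraries. The log2 fold change was -0.53 (SE 0.19, with an adjusted p of 0.348 in edgeR's quasi-likelihood test). Without siTop3β replicate 2 it was -0.97 with an adjusted p of 3.77e-07 by edgeR, without siTop3β replicate 1 it was -0.21 with 0.724, and under the crossed pairing it was -0.56 with 0.00436. The next smallest p-value after Atf3 and puc belonged to chic, the fly profilin, with a log2 fold change of -0.23 (adjusted p = 0.707 in edgeR's quasi-likelihood test). The injury and growth signals Ilp8, upd1, upd2 and upd3 and the death gene rpr stayed at 0 to 12 counts a library and were not tested.

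The p38 branch, the other stress-activated kinase cascade, was weakly expressed. Of its 5 genes, 4 were tested and none passed, with log2 fold changes between -0.36 and -0.07. The p38 kinase kinase gene lic had the lowest, with 12.5 and 13.9 CPM in siTop3β against 17.0 and 16.9 CPM in siControl (SE 0.26, with an adjusted p of 0.776 in edgeR's quasi-likelihood test). p38a had -0.16 (adjusted p = 0.954) and Atf-2, the factor that p38 phosphorylates, had -0.12 (adjusted p = 0.969, both from edgeR).

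Among 18 other bZIP factors, the protein family of kay and Jra, 16 were tested, 1 fell and none rose, against a background of 0.825% of genes lower and 0.384% higher. The median log2 fold change was -0.10. The gene that fell was Xrp1, a stress-induced factor known from DNA damage and cell competition, with 247.3 and 301.4 CPM in siTop3β against 432.8 and 414.1 CPM in siControl. Its groups were well apart, and its log2 fold change was -0.63 (SE 0.14, with an adjusted p of 0.015 in edgeR's quasi-likelihood test). Xrp1 lost the call without siControl replicate 1 (log2 fold change -0.62, adjusted p = 0.553), without siControl replicate 2 (-0.67, 0.22) and with no filter (-0.66, 0.0529, all by edgeR), so that its fold change stayed close to the reported one while the adjusted p rose above 0.05. The DESeq2 Wald test called it (adjusted p = 0.0212). cnc, the fly counterpart of the antioxidant factor Nrf2, had 211.3 and 200.8 CPM in siTop3β against 247.3 and 285.9 CPM in siControl, and did not pass (log2 fold change -0.37, adjusted p = 0.278 in edgeR's quasi-likelihood test).

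**Figure D4:**
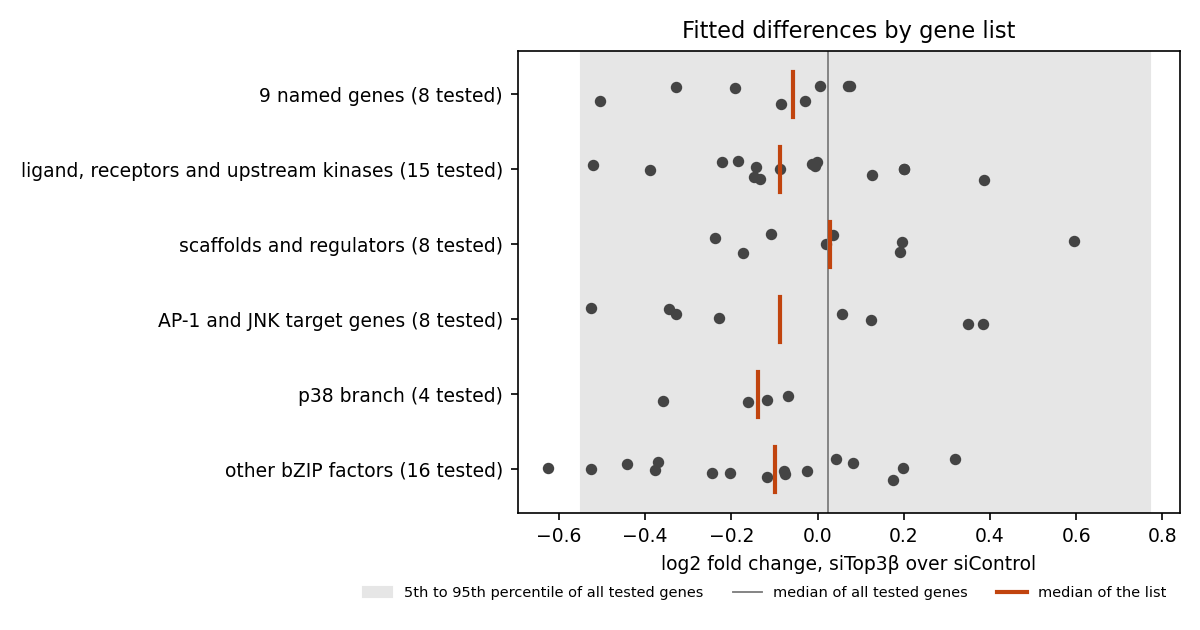
Log2 fold change of siTop3β over siControl for each tested gene of the lists (points, shifted vertically at random) with the median of each list in orange-red. The grey band holds the 5th to 95th percentile of all 7029 tested genes (-0.55 to 0.77) and the grey line their median (0.02). List medians lie between -0.14 and 0.03, and only Xrp1, at -0.63, falls outside the band.

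The genes with the pattern most like that of kay were sought among all tested genes, by the Euclidean distance of centred log2 CPM over the 4 libraries. The nearest were RtGEF, CG13305 and CG9747, at distances of 0.062, 0.0681 and 0.072. RtGEF had 128.6 and 112.4 CPM in siTop3β against 158.1 and 178.9 CPM in siControl. CG13305 had 1104 and 1009 CPM in siTop3β against 1373 and 1686 CPM in siControl. CG9747 was close to the detection limit, with 10 and 10 counts in siTop3β against 17 and 15 counts in siControl, and its log2 fold change of -0.56 had an SE of 0.59. With 4 libraries, a small distance describes the shape and carries no test.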

How the data were processed

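Nuclear RNA libraries of 2 siTop3β and 2 siControl samples were trimmed (Trimmomatic) and mapped to dm6 (STAR) by the authors, whose deposited values are unnormalized counts of reads for every gene. The counting tool, annotation, strand setting and treatment of introns are not given in the sources used here.

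These counts were tested by edgeR (4.0.16, under R 4.3.3) after its expression filter, with TMM factors and the robust quasi-likelihood test without a block, with Benjamini-Hochberg adjustment over the 7029 genes tested and a threshold of 0.05. Standard errors and 95% intervals came from the test statistic. DESeq2 1.42.0 was an alternative. The fit was tested on simulated data. It called few of the genes given the smallest change, which was larger than the change fitted for kay. Gene symbols came from the supplied name table and gene models from Ensembl release 115 (dm6 coordinates), which covered 13866 of 13929 identifiers. Of 69 list symbols, 67 were matched, and the other 2, Alph and zip, were not analysed here.

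The text names all 9 genes, Top3β, overlapping genes, called list genes, otherwise the 3 smallest p-values of a list, and the 3 nearest patterns to the gene with the smallest p. Tak1, hiw, egr, the untested targets and genes of the closing section were added after their values were seen. Members and lists were chosen with earlier results of these data known.

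Normalization, filter, test, block and single libraries were varied.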

Additional observations from a re-analysis of the deposited data

How the results depend on the processing

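Of the 8 tested genes, 0 were called in the reported fit. Requiring at least 10 counts per library called 1, kay, and so did the crossed pairing. With 1 library left out the number was 0 to 1. Over all genes, 85 were called (58 lower, 27 higher). The stricter minimum of 10 counts gave 138 (94 lower, 44 higher) and DESeq2 gave 51 (8 higher). Higher genes numbered 17 with total counts only and 42 with no filter. With 1 library left out the total ran from 52 to 424, lower genes from 40 to 171 and higher genes from 11 to 253, the largest numbers without siTop3β replicate 2. The causes were not tested.

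Same-numbered libraries deviated from their group means with a correlation of -0.12, and nothing in the labels pairs them. With the replicate block 60 genes were called (17 higher), and the log2 fold changes of kay and puc were -0.50 and -0.33. The crossed pairing, added after seeing the data because of that correlation, called 211 (131 lower, 80 higher).

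Signs turned only in genes close to 0. wnd was at -0.028 with no filter and -0.044 with DESeq2, and hep at 0.022 with upper quartile normalization. With 1 library left out, wnd ran from -0.22 to 0.17, Jra from -0.24 to 0.021, slpr from -0.056 to 0.17, msn from -0.0505 to 0.15 and Top3β from -0.017 to 0.22. kay, puc and bsk kept a negative sign under all 13 alternatives. Depth limited Jra and Gadd45 most.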

Other observations

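Among the tested bZIP factors, siTop3β replicates differed most in vri, a repressor of the circadian clock. It had 71.1 and 24.3 CPM in siTop3β replicates 1 and 2, against 37.2 and 45.8 CPM in siControl, so the siTop3β libraries lay on either side of both siControl libraries. Pdp1, the activator that opposes vri in the clock, had 1153 and 1403 CPM in siTop3β, against 1193 and 1071 CPM in siControl. CrebA, a bZIP factor of the secretory pathway, had 223.5 and 297.4 CPM in siTop3β, against 208.5 and 209.2 CPM in siControl, and was the only bZIP factor with an unadjusted p under 0.05 and a positive log2 fold change, 0.32 (adjusted p = 0.473 in edgeR's quasi-likelihood test).

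Among untested target genes, upd3, a cytokine of the JAK-STAT pathway, had 2 and 5 counts in siTop3β, against 12 and 7 counts in siControl. The related upd1 went the other way, with 8 and 5 counts in siTop3β against 2 and 3 counts in siControl. Besides p38c, upd3 was the only untested gene of the lists with a count whose highest library was not siTop3β replicate 1.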
